A study of Ovis aries with 13 samples.

Results

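The genes described here are CPT1A, CPT1B and SLC25A20, which encode the part of the carnitine shuttle that carries long-chain fatty acids from the cytosol into mitochondria. They were measured in left ventricle of sheep, on 1 Agilent 1-colour array for each animal. They were found by name, or by the RefSeq transcript given for a probe, among the probes that are not controls. This gave 5 of the 15008 probes, 2 for CPT1A, 2 for CPT1B and 1 for SLC25A20, so that all 3 genes could be followed, out of 971 genes that the array's probes could be given. The 6 fetal samples were taken at gestational day 142 and came from 2 females and 4 males. The 7 newborn samples, labelled postnatal day 1 and described in the protocol as taken on the day of birth, came from 4 females and 3 males. No treatment, genotype or breed is named for either group. In both groups frozen ventricular tissue was homogenized whole, so each value is an average over all the cell types of the wall, and fewer cells of a type cannot be told apart from less RNA per cell.

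The inner mitochondrial membrane does not let long-chain acyl-CoA through. Carnitine palmitoyltransferase 1 (CPT1), in the outer membrane, moves the acyl group from coenzyme A to carnitine, and this is the step that malonyl-CoA inhibits. CPT1A is the form known from liver and CPT1B the form known from muscle and adult heart, where CPT1A is found beside it in early life. SLC25A20, the carnitine-acylcarnitine translocase, then exchanges acylcarnitine for free carnitine across the inner membrane, and CPT2 inside remakes the acyl-CoA that enters beta-oxidation. The heart is known to draw mainly on glucose and lactate before birth and to turn to fatty acids afterwards. The arrays compare RNA levels between these groups, and use of fuels was not measured.

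The probes are shown because every value below is read through them, and because the paired probes of a gene overlap and so do not measure different parts of its transcript. Each is 60 bases long and is written 5′ to 3′ as the scanner files give it, with capitals for the bases that it shares with the other probe of the same gene.
CPT1A, A_70_P051282: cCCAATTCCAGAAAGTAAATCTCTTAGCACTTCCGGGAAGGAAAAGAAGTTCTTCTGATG
CPT1A, A_70_P051281: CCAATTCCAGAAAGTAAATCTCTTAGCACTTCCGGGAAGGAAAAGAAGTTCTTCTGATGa
CPT1B, A_70_P030107: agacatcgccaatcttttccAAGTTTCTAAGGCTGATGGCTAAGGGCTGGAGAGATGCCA
SLC25A20, A_70_P029431: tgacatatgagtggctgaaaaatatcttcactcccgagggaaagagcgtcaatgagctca

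The CPT1A probes are offset by 1 base and share 59. The other CPT1B probe, A_70_P030106, starts 20 bases further along the transcript than the one shown and shares the 40 bases in capitals. None of the 15003 other probes holds a run of 20 bases from any of these probes, on the strand as printed, and the longest run shared on that strand by probes of different genes among these 5 was 6 bases. Per the files' annotation the probes start at bases 2429 and 2430 of the CPT1A transcript, 2386 and 2406 of the CPT1B transcript, and 562 of the SLC25A20 transcript. Their place in the genome and relative to the coding sequence was not analysed here. The probe A_70_P051281 lies in 5 spots on each array and the other 4 probes in 1 spot each. All 5 probes were well above background on 13 of 13 arrays.

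The arrays lay on 2 slides, both of which held both groups, slide 1 with 4 fetal and 3 newborn arrays and slide 2 with 2 and 4. Between 62.7% and 71.4% of probes were well above background on each array, and precision is limited by how many arrays there are. On the first principal component, with 36.8% of the variance, the fetal arrays lay between -29.1 and -20.4 and 6 newborn arrays between 10.08 and 35.07, while newborn 6 lay at -8.997. The changes of CPT1A and SLC25A20 and of the CPT1A to CPT1B ratio are therefore also given without newborn 6, as are some other results. The labels number the animals, and 9 of them share 4 numbers with another animal of their group under a different letter. What a shared number stands for was not stated, so the changes and ratios of the 3 genes are also given with that number in the model. The labels otherwise give each array as a separate animal.

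Values below are log2 processed signals from which each array's 75th percentile was subtracted, so that a value of 0 is a signal at that percentile and a difference of 1 is a doubling. Where a gene has a pair of probes, the brighter one represents it. By that probe 2 of the 3 genes, CPT1A and SLC25A20, were higher in newborn ventricle in limma at an adjusted p under 0.05, and by single probes 4 of 5 were. Over the 10255 probes tested 23.1% passed in either direction and 12% passed as higher in newborns, so a rise alone was not rare.

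**Figure D1:**
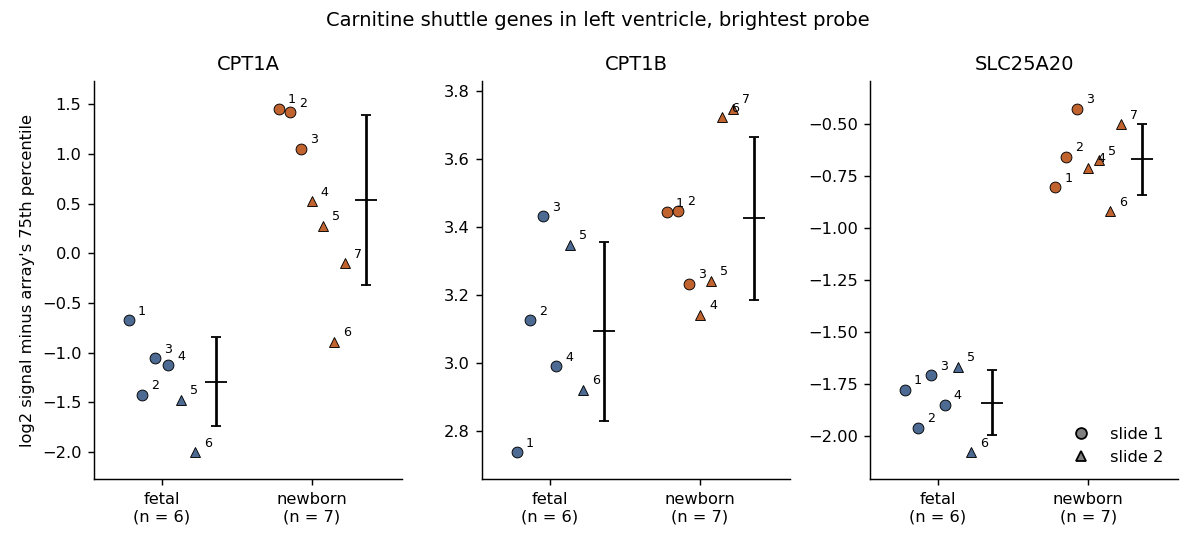
Signal of CPT1A, CPT1B and SLC25A20 on each array, as log2 minus the array's 75th percentile, for 6 fetal and 7 newborn arrays. Each point is 1 array with its replicate number, circles are slide 1 and triangles slide 2, and the bars are the mean ± SD of the group. SLC25A20 separates the groups on every array, CPT1A on all but newborn 6, and CPT1B overlaps. The vertical axes differ between panels.

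CPT1A rose in newborns, with the largest estimate of the 3 genes and the widest spread. On the fetal arrays its lowest, median and highest values were -1.998, -1.27 and -0.67, and on the newborn arrays -0.89, 0.52 and 1.46. All newborn arrays but newborn 6, the lowest of them, lay above every fetal array. The means were -1.29 ± 0.45 (SD, n = 6) and 0.53 ± 0.86 (SD, n = 7). The rise was 3.54-fold, a log2 change of 1.83 (SE 0.345, 95% confidence interval 1.09 to 2.56, limma adjusted p = 0.00291). Without newborn 6 it was 4.18-fold, a log2 change of 2.06 (adjusted p = 0.000255), the SD of the newborn arrays was 0.64, and 30.4% of all tested probes passed. With the animal number as a random block it was 1.79 (SE 0.387, adjusted p = 0.00841). The overlapping probe gave a log2 change of 1.84 (adjusted p = 0.00295), and the pair of probes differed by between -0.14 and 0.10 on the 13 arrays. The spread of CPT1A around its group means was larger than that of 96.6% of tested probes.

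The CPT1A probe with 5 spots shows how well a single array fixes the value. The SD between its spots was at most 0.18 on all arrays but newborn 6, where it was 0.39 and the spots ranged from -1.40 to -0.53. The highest spot on newborn 6 lay above the highest fetal mean of that probe, -0.64, and its mean lay below it. The median SD over the 25 tested probes with several spots was also highest on newborn 6, at 0.20, against 0.077 to 0.15 on the other arrays.

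By its brighter probe CPT1A was lower on slide 2 than on slide 1 in both groups, without overlap between the slides. The fetal arrays lay between -1.42 and -0.67 on slide 1 and at -1.47 and -1.998 on slide 2. The newborn arrays lay between 1.05 and 1.46 on slide 1 and between -0.89 and 0.52 on slide 2. The overlapping probe separated the slides in the newborns but not in the fetuses, which lay between -1.46 and -0.64 on slide 1 and at -1.33 and -2.08 on slide 2. With age in the model, slide 2 was lower than slide 1 by 1.05 on the log2 scale (SE 0.232, unadjusted p = 0.000489 and adjusted p = 0.453 in limma, which called 0 probes for slide, with 533 at an unadjusted p under 0.05). Each of the 4 shared animal numbers had animals on both slides, and in 4 of 4 the slide 1 value of CPT1A was above every slide 2 value. The lack of overlap within each group already fixes that count, so it adds no separate evidence. The slide 1 value was above in 2 of 4 for CPT1B and 2 of 4 for SLC25A20. Why CPT1A differed by slide was not tested. The newborn rise in CPT1A was present within each slide, with a log2 change of 2.38 (adjusted p = 0.00184) on slide 1 and 1.69 (adjusted p = 0.131) on slide 2, where the call was lost. Within slide 1 3.47% of tested probes passed and within slide 2 0.224%. With slide as a block it was 2.08 (adjusted p = 0.000227), and the difference between the slides' changes was -0.69 (adjusted p = 1.00, limma calling 0 probes, with 292 at an unadjusted p under 0.05).

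SLC25A20, the translocase, rose on every newborn array, with a smaller estimate than CPT1A and little spread. Its lowest, median and highest values were -2.08, -1.82 and -1.67 on the fetal arrays and -0.92, -0.68 and -0.43 on the newborn arrays. The groups did not overlap, and newborn 6, again the lowest newborn, lay above every fetal array. Non-overlapping groups with the newborns higher were found for 3.38% of tested probes. The rise was 2.25-fold, a log2 change of 1.17 (SE 0.103, 95% confidence interval 0.95 to 1.39, limma adjusted p = 2.7e-05). Its p-value ranked 4 among the 10255 probes and 1 among the 620 named genes, while by size its rise ranked 134 among all probes and that of CPT1A ranked 39. The log2 change was 1.19 within slide 1 (adjusted p = 0.0097), 1.17 within slide 2, where it missed the threshold (adjusted p = 0.0825), and 1.21 without newborn 6. With the animal number as a random block it was 1.17 (adjusted p = 9.14e-05). The SD was 0.16 in fetuses and 0.17 in newborns, and 14.1% of tested probes were as even or more so around their group means.

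The fetal signals of SLC25A20, 66.8 to 97.1 intensity units, and of CPT1A, 81.8 to 174, were dim, with background already subtracted. The median background of the arrays was 20.5 to 37.5 units. The changes of both genes varied with the background correction. Every normexp fit here also added 50 units to each signal, which by itself shrinks the log2 changes of dim probes. With normexp and the background of each spot, the call was lost for SLC25A20 (log2 change 0.61, adjusted p = 0.16) and for CPT1A (1.06, adjusted p = 0.152), and 48 probes passed in all, against 2366. On fetal 6 and newborn 1 the highest spot background was 24495 and 15376 units, against at most 478.5 on the others, and there the correction left the 5th percentile of all signals at 679 and 578 units, against 59 to 101. With the few backgrounds over 100 units replaced by the array's median, an alternative chosen after the data were seen, SLC25A20 rose by 0.77 (adjusted p = 2.52e-05) and CPT1A by 1.38 (adjusted p = 0.00626), and 1988 probes passed. With that replacement on fetal 6 and newborn 1 alone, also chosen after the data were seen, SLC25A20 rose by 0.74 (adjusted p = 0.000117) and CPT1A by 1.35 (adjusted p = 0.00583), and 1722 probes passed. In the authors' deposited series matrix, whose normalization is not stated, the log2 changes were 0.59 (adjusted p = 5.35e-05) and 1.21 (adjusted p = 0.00895). The direction was the same in all of these. The size of both rises varied between them, and how much of that came from the 50 added units was not tested.

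**Figure D2:**
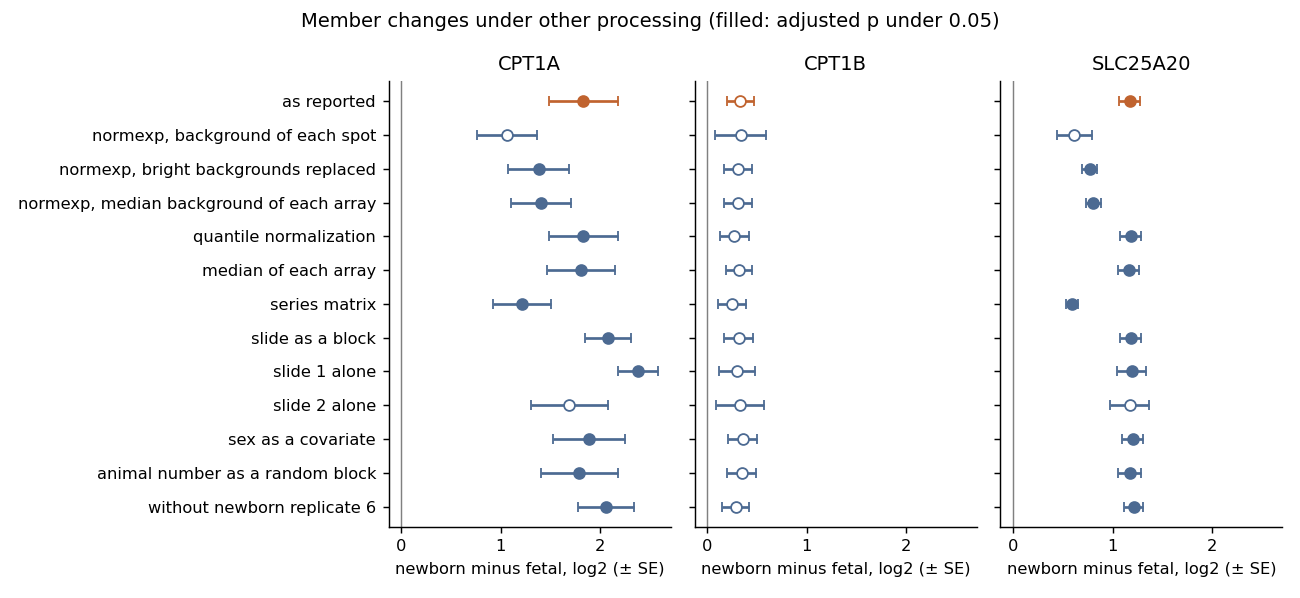
Newborn minus fetal log2 change of CPT1A, CPT1B and SLC25A20, with its SE, as reported (orange) and under other processing (blue). Filled points have an adjusted p under 0.05. All points lie above 0, those of CPT1B are open in every setting, and those of CPT1A and SLC25A20 are open on slide 2 alone and with normexp on the background of each spot.

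CPT1B, the muscle form, had the smallest difference between the ages. Its lowest, median and highest values were 2.74, 3.06 and 3.43 on the fetal arrays and 3.14, 3.44 and 3.75 on the newborn arrays. The groups overlapped, and 4 of 7 newborn arrays lay above every fetal array. The difference was 0.33 on the log2 scale (SE 0.138, 95% confidence interval 0.04 to 0.63, limma adjusted p = 0.0932, or 0.111 with the animal number as a random block), so a change of up to 1.55-fold remained within the interval. Its other probe gave 0.35 (SE 0.117) and passed (adjusted p = 0.0439), but missed the threshold once slide (0.33, adjusted p = 0.0722) or, as a random block, the animal number (0.36, adjusted p = 0.0613) entered the model. Those fits passed 20.7% and 16.7% of all tested probes. It also missed the threshold without any one of 9 of the 13 arrays, newborn 6 included (adjusted p = 0.0597, range over all 13 0.0328 to 0.0919). Newborn 6 and newborn 7, the lowest pair of newborns for CPT1A, had the highest CPT1B values, 3.72 and 3.75. The levels of CPT1A and CPT1B cannot be ranked against each other, because different probes give different signal per transcript.

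**Figure D3:**
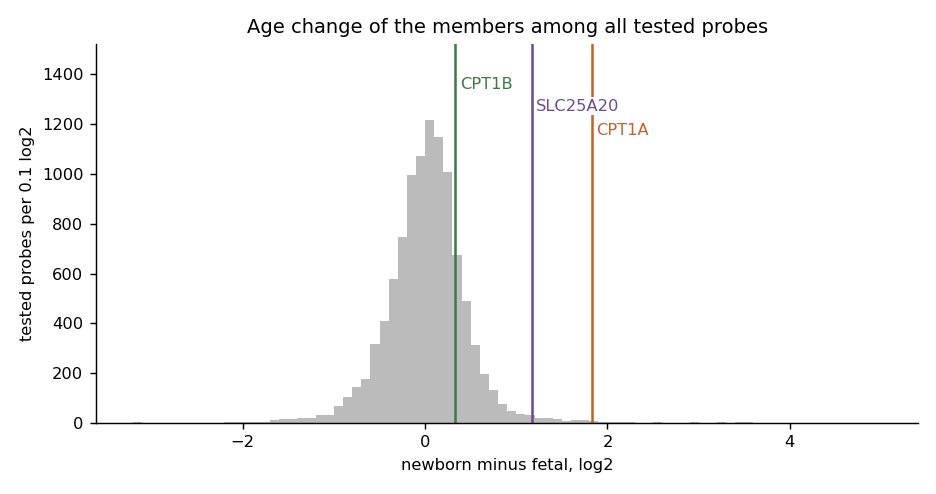
Distribution of the newborn minus fetal log2 change over the 10255 tested probes, in bins of width 0.1, with vertical lines at the changes of CPT1B (0.33), SLC25A20 (1.17) and CPT1A (1.83). SLC25A20 and CPT1A lie in the right tail, where 191 probes, 1.86% of those tested, rose at least 2-fold by estimate, and CPT1B lies within the bulk.

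The balance of the CPT1 forms on each array is not altered by subtracting a constant from the array's log2 values, and it was given relative to the fetal mean. With quantile normalization, which does alter it, the change below was 1.56 (exact permutation p = 0.0117). The log2 ratio of CPT1A to CPT1B rose by 1.49, or 2.81-fold, in newborns (exact permutation test over 1716 arrangements, two-sided p = 0.0128, or 0.0192 adjusted over the 3 ratios). Relative to the fetal mean the ratio lay between 0.69 and 1.96 in fetuses. It was 5.26, 5.11 and 4.61 in newborns 1, 2 and 3, all on slide 1. It was 3.39, 2.68, 0.85 and 1.45 in newborns 4 to 7 on slide 2. Thus 5 of 7 newborns lay above every fetus, newborn 7 lay within the fetal range, and newborn 6 lay below the fetal mean. Permuted within slides the change was 1.76 (exact p = 0.00381), and without newborn 6 it was 1.78 (exact p = 0.00433). Within slide 1 it was 2.07 (exact p = 0.0286, the smallest that test can give), and within slide 2 it was 1.36 (exact p = 0.133). With 2 fetal and 4 newborn arrays, the slide 2 test has too few arrangements to pass whatever the values, so it decides nothing.

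With the animals averaged by their 8 numbers the ratio of CPT1A to CPT1B changed by 1.31, which did not pass (exact permutation over 70 arrangements, p = 0.114). Without newborn 6, the only animal with its number, it passed (1.83, exact p = 0.0286). That test has 1 number and some arrangements fewer, and this p is the smallest it can give. In the deposited matrix it changed by 0.96 (exact p = 0.0519), or 1.26 without newborn 6 (exact p = 0.00649), and with normexp on the background of each spot by 0.73 (exact p = 0.204). With the bright backgrounds replaced it was 1.08 (exact p = 0.0443), and with those of fetal 6 and newborn 1 alone replaced it was 1.02 and missed the threshold (exact p = 0.0507). In the main values the other probe pairs and the mean of all probes gave 1.48 to 1.51 (exact p of 0.0117 to 0.0122). In the deposited matrix the choice of probes decided the call, since the other pairs and the mean of all probes, tried after the data were seen, gave 0.98 to 1.04 and passed (exact p of 0.00874 to 0.0251).

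The translocase was set against each CPT1 form in the same way. SLC25A20 rose relative to CPT1B by 0.84, or 1.79-fold (exact permutation p = 0.00175, adjusted 0.00524), and 6 of 7 newborns lay above every fetus. Over the 8 animal numbers that change was 0.81 (exact p = 0.0286). CPT1A relative to SLC25A20 changed by 0.66 and did not pass (exact permutation p = 0.102). It was 0.89 within slides (exact p = 0.00762) and 0.85 without newborn 6 (exact p = 0.0281). Over the animal numbers it was 0.50 (exact p = 0.143).

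**Figure D4:**
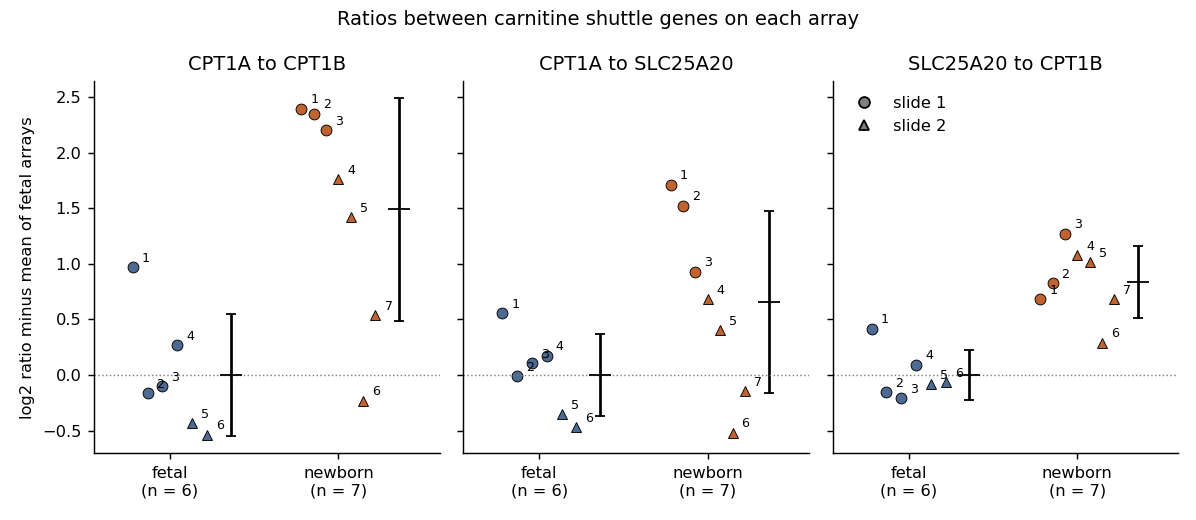
Log2 ratio between a pair of members on each array minus the mean of that ratio over the 6 fetal arrays, for 6 fetal and 7 newborn arrays. Points carry the replicate number, circles are slide 1, triangles slide 2, and bars are the mean ± SD. Newborns 6 and 7 lie near the fetal arrays for CPT1A to CPT1B, and the newborns of slide 1 lie highest for both ratios of CPT1A.

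Within a group the members were not shown to vary together. CPT1A and SLC25A20 had r = 0.63 and rho = 0.37 over the 6 fetuses (exact permutation p = 0.19 and 0.497) and r = 0.30 and rho = 0.14 over the 7 newborns (p = 0.503 and 0.783, exact permutation). CPT1A and CPT1B had r = -0.14 and rho = -0.09 in fetuses (exact permutation p = 0.808 and 0.919) and r = -0.52 and rho = -0.39 in newborns (exact permutation p = 0.235 and 0.396). SLC25A20 and CPT1B had r = 0.51 and rho = 0.54 in fetuses (exact permutation p = 0.311 and 0.297) and r = -0.23 and rho = -0.07 in newborns (exact permutation p = 0.608 and 0.906). Without the 2 arrays farthest from the median of the first gene, r in the same order was 0.12, -0.02, 0.01, -0.34, 0.71 and 0.63. Over the 6 relations the adjusted p was at least 0.622.

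No difference between the sexes passed for a member. In limma the male minus female difference was 0.27 for CPT1A, 0.09 for CPT1B and 0.12 for SLC25A20, each with an adjusted p of 0.999, and 1 of the 10255 probes passed for sex. With sex in the model the newborn rise was 1.89 for CPT1A and 1.20 for SLC25A20. The change in males minus that in females was -0.64 for CPT1A (SE 0.735), -0.03 for CPT1B (SE 0.305) and -0.26 for SLC25A20 (SE 0.207), each with an adjusted p of at least 0.986. Limma called 0 probes for that difference, with 507 at an unadjusted p under 0.05, and the errors leave room for sizeable differences between the sexes in CPT1A.

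The rest of the fatty acid pathway could be followed only in part, since 10.5% of probes could be given a single gene. Of 92 listed genes, from uptake to ketone bodies, 18 were named on the array and 14 tested. Leaving out CPT1A, CPT1B and SLC25A20, 11 were tested, of which 1 rose, 2 fell and 8 did not pass, with a median log2 change of -0.16. Over all 620 named genes 23.1% passed, 13.9% as higher, and the median was 0.09. No listed gene of acyl-CoA activation, beta-oxidation or ketone bodies was tested, and CPT2, CPT1C, CRAT and CROT were not analysed here.

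Upstream of the shuttle, LPL, the lipase that frees fatty acids from triglyceride in the capillaries, fell by 0.62 on the log2 scale (SE 0.141, limma adjusted p = 0.00737), and its other probes gave -0.46 and -0.42. FABP5, a fatty acid binding protein, differed by -0.06 (adjusted p = 0.856). PRKAA2, a catalytic subunit of AMP-activated kinase, which lowers malonyl-CoA, differed by -0.25 (adjusted p = 0.132). ACACA, which makes malonyl-CoA, was not well above background on any array.

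Among regulators, PPARG, a lipid-sensing nuclear receptor, fell by 0.54 (SE 0.174, limma adjusted p = 0.0386), a call lost in the model with slide (adjusted p = 0.0541) and without any one of 9 of the 13 arrays. PPARA, the nuclear receptor known to induce CPT1 genes, was 0.23 lower (SE 0.104) and PPARGC1A, its coactivator, 0.41 lower (SE 0.169), and neither passed (adjusted p = 0.119 and 0.0942). A dimmer PPARGC1A probe did pass (-0.40, adjusted p = 0.0378). The 2 other tested regulators did not pass.

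Among other genes known to respond to PPAR receptors, PLIN5, which coats lipid droplets beside mitochondria, rose by 0.44 (SE 0.135, limma adjusted p = 0.0296). In the model with slide that call was lost (adjusted p = 0.0508), as it was without any one of 6 of the 13 arrays. PLIN2, another droplet coat protein, differed by 0.50 (SE 0.273, adjusted p = 0.20), and TXNIP, a regulator of glucose uptake, by 0.22 (adjusted p = 0.439). UCP3, the uncoupling protein of muscle, was well above background on 0 fetal and 2 newborn arrays and was not tested.

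**Figure D5:**
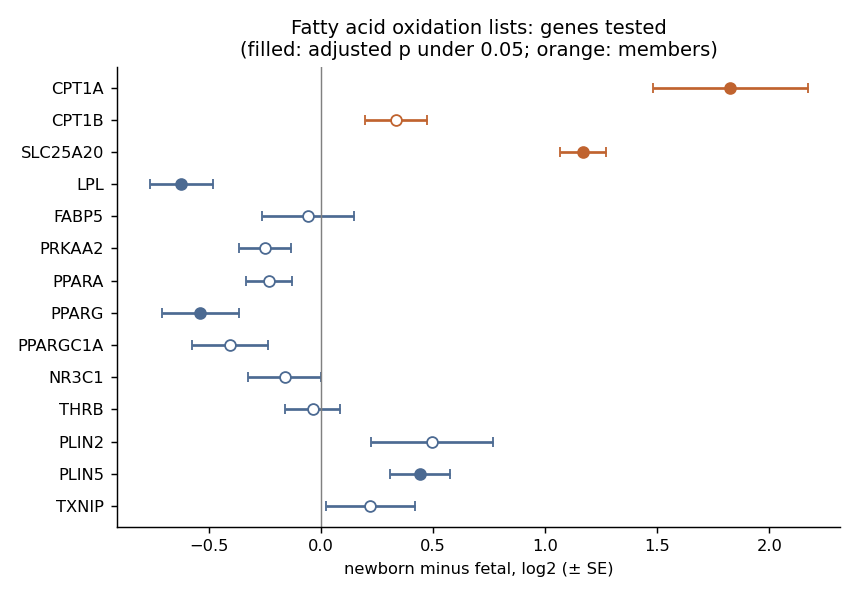
Newborn minus fetal log2 change, with its SE, of the 14 tested genes of the fatty acid lists, with CPT1A, CPT1B and SLC25A20 in orange and the others in blue. Filled points have an adjusted p under 0.05. CPT1A and SLC25A20 lie furthest to the right of the 14, and LPL and PPARG are the filled points below 0.

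Markers of several cell types also differed between the groups. Of the 20 cardiomyocyte markers 2 were on the array, and both were bright: myoglobin (MB), at 8.97 in fetuses and 8.62 in newborns, did not pass (adjusted p = 0.139), and the slow myosin heavy chain MYH7 fell by 1.14 (limma adjusted p = 0.000774). The log2 of their summed scaled signals, called the summed level below, was 8.82 to 9.26 in fetuses and 8.07 to 9.16 in newborns. Such a sum is set mainly by the brightest genes of a list, here MB, since MYH7 was at 4.61 in fetuses and 3.47 in newborns. Liver is known for CPT1A and skeletal muscle for CPT1B. Of 7 hepatocyte markers 5 were on the array and 0 of 2 tested passed, ALB was well above background on 2 fetal and 1 newborn arrays, and SERPINA1 on none (summed level 0.93 to 1.34 in fetuses and 0.91 to 1.62 in newborns). Of 14 skeletal muscle markers 4 were on the array, and MYH1 and MYH2 were never well above background. MYOD1 rose by 0.43 (adjusted p = 0.0477, or 0.0592 without newborn 6). Its other probe gave 0.62 and did not pass (adjusted p = 0.111). TNNC2 differed by 1.11 (SE 1.27, adjusted p = 0.551), and the summed level was -0.50 to 3.85 in fetuses and -0.14 to 5.30 in newborns.

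Of 11 adipocyte markers 5 were on the array and, of 3 tested, only LPL passed, as a fall, while UCP1 was well above background on 0 fetal and 1 newborn arrays (summed level 3.87 to 4.74 and 3.50 to 3.94). All 3 tested macrophage and monocyte markers rose (-0.46 to 0.08 and 0.07 to 1.13), as did the smooth muscle marker CNN1, by 1.83 (1.86 to 2.84 and 3.29 to 6.39). Of the former, FCGR1A was well above background on 2 fetal and 7 newborn arrays, so the newborns carried it through the filter. ITGAM, also on that list, was well above background on no array and was not tested. Of 5 tested endothelial markers 3 fell (2.62 to 2.98 and 2.17 to 2.82), as did 1 of 3 fibroblast markers (5.45 to 6.02 and 4.84 to 6.22). That fibroblast marker, COL3A1, passed by its brightest probe (adjusted p = 0.0469) but not by its other probes (adjusted p = 0.143 and 0.374). The 2 tested T-cell markers fell (-2.17 to -0.73 and -4.23 to -2.56), as did the 2 erythroid ones (5.75 to 8.01 and 4.67 to 6.10), of which AHSP did not pass without newborn 6 (adjusted p = 0.0621). CD3D and the tested AHSP probe were each well above background on 5 fetal and 2 newborn arrays, and CD4 on none. Over all tested probes 12% passed as higher in newborns and 11.1% as lower. The paired ranges in parentheses are summed levels on the fetal and then the newborn arrays. The part of shifts in cell types in the changes of CPT1A and SLC25A20 was not tested. On newborn 6 the fibroblast sum was the highest of the 13 arrays, at 6.22, and the erythroid and adipocyte sums were the lowest. These sums mostly follow 1 gene each, DCN, HBB and LPL, with fetal means of 5.70, 6.64 and 4.33. The other genes of those lists had fetal means of at most 0.68, so the sums need not reflect numbers of cells.

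The named genes with values most like those of a member were sought over the 13 arrays among 595 genes with a value on every array. For CPT1A they were PCNA, a clamp of DNA replication (r = 0.92), ABHD5, the activator of adipose triglyceride lipase (0.89), and TYMS, which makes thymidylate (0.86). For SLC25A20 they were the inhibin subunit INHA (0.93), the serine synthesis enzyme PSPH (0.90) and the zinc transporter SLC39A3 (0.88). For CPT1B they were PLIN5 (0.73), ZGPAT (0.71) and the splicing factor SNRPA (0.71). These r values include the difference between the groups and, for PSPH and TYMS, arrays on which the gene was not well above background (11 and 12 of 13 were).

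After each group's mean was subtracted, the most like CPT1A were JUND (0.88), IL13RA1 (0.86) and the gene the array names EIF4GI (0.81), and none of these passed for age. The most like CPT1B were PTGER3 (0.81), ITGB5 (0.73) and CDKN1C (0.69), and the most like SLC25A20 were CSNK1D (0.76), TCP1 (0.74) and TUBA4A (0.73). The arrays share their slides and their scaling, so these values describe likeness only.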

How the data were processed

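Left ventricle samples of 6 fetal and 7 newborn sheep were grouped by their labels. Each scanner file, as deposited, gives an intensity for every spot from Agilent Feature Extraction 10.1.1.1. Per the file headers, background subtraction and a detrending step gave its processed signal, and arrays were not scaled to each other. It has 1 green channel, and the labels' protocol names Cy3 although a label field names Cy5. The authors' deposited series matrix holds values of 7041 probes that follow log2 signals (r of 0.986 to 0.992 with their own array, column medians 8.69 to 8.70). Its normalization and direction of any centring are not stated, and it served as an alternative. The protocol and design speak of 7 fetuses and of further heart regions, not analysed here.

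Processed signals were converted to log2, the 75th percentile over non-control spots of each array was subtracted, control spots and spots with outlier marks were left out, and spots of a probe were averaged. Probes well above background on at least 6 arrays, 10255 of 15008, were fitted with limma 3.58.1 (lmFit, eBayes, two-sided) in R 4.3.3, with Benjamini-Hochberg adjustment and a threshold of 0.05. Adjusted p-values are from limma unless an exact permutation test is named, and n is 6 fetal and 7 newborn arrays. Names came from the files and from RefSeq's list of sheep genes (assembly ARS-UI_Ramb_v3.0). The files name no build, so no genome coordinates are given. Of the probes, 1572 had a single gene, 203 of them under the file's name, 16 had several genes, 8 conflicting ones and 13412 none. The genes named are the members, the listed genes that passed, up to 2 per list that did not, and the 3 most like each member. CNN1 and other cell type markers are given by list. The members, lists and tests were chosen with earlier results of these data known. The steps were tested on simulated data. Same-numbered replicates did not deviate together (r of -0.07 to 0.05 over 6 pairs), so numbers were not taken to pair animals. Alternatives changed the background correction, scaling, filter, spread model, outlier marks, probes, slide, sex, animal number and replicate number, or left out each array. The software was version 1.17.8 of data.table, Python 3.11.15, matplotlib 3.10.9, pandas 2.3.3 and numpy 2.4.6.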

Additional observations from a re-analysis of the deposited data

Results flagged for a closer look

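Of 26 groups of values examined for an array set apart from the rest, 4 held one, where chance flags about 1 in 20. On newborn 6 the SD between the 5 spots of the CPT1A probe was 0.386, against at most 0.111 on the other newborn arrays. In the authors' deposited series matrix the overlapping probes of a gene differed on newborn 6 by more than on any other newborn array. For CPT1B the difference there was 0.774 (next 0.157) and for CPT1A it was -0.571 (next -0.151). In the scanner values the CPT1A and CPT1B probe pairs held no such array. For CPT1B on fetal 4 the difference in the matrix was -0.133 (next 0.12). Newborn 6 is also the array that lay between the groups on the first principal component, and why its values differ was not tested.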

How the results depend on the processing

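Of 32 alternatives, 30 kept the direction and the call of CPT1A and of SLC25A20, and 32 kept the direction of CPT1B and its place short of the threshold. None of these changed direction. The other CPT1B probe lost its call under 23 of the 32. Fits that combine the absence of newborn 6 with slide, animal number or the matrix, other probes or slides in the matrix, and the replacements of bright backgrounds were chosen after the data were seen. With normexp on the background of each spot 48 probes passed, CPT1A rose by 1.06, SLC25A20 by 0.61 and the CPT1A to CPT1B ratio by 0.73, and none of these passed. With the bright backgrounds of fetal 6 and newborn 1 alone replaced, 1722 probes passed, CPT1A and SLC25A20 passed, and the ratio (1.02) did not. On slide 2 alone 23 probes passed, and CPT1A (1.69) and SLC25A20 (1.17) did not pass. The exact test of the ratio (1.36) could not pass there whatever the values, because so few arrays give too few arrangements. On slide 1 alone 356 probes passed. The ratio also missed the threshold in the series matrix by the brighter probes (0.96) and over animal numbers (1.31), and the cause was not tested. With the replicate block, which pairs replicates 1 to 6, 1326 probes passed, CPT1A rose by 1.93, CPT1B differed by 0.28, SLC25A20 rose by 1.14 and the ratio rose by 1.65 (exact p = 0.0312). Same-numbered animals were not shown to be paired (1 of 6 correlated best with its own number), and the replicate block changed no call of these. The count of listed pathway genes that passed fell from 5 to 3 with slide as a block.

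Leaving out each array in turn gave 1727 to 3116 probes (most without newborn 6), log2 changes of 1.67 to 2.06 for CPT1A, 1.12 to 1.21 for SLC25A20 and 0.26 to 0.40 for CPT1B, a ratio change of 1.34 to 1.78, and 3 to 5 listed pathway genes. CPT1A, SLC25A20 and the ratio passed in 13 of 13 and CPT1B by its brighter probe in 0 of 13. Of calls, 51.9% were rises with the main scaling, 46.3% with quantile and 46.8% with median scaling, and the median change of all probes was 0.03, 0.01 and 0.01. The fetal signals of SLC25A20 and CPT1A, with background already subtracted, were 66.8 to 97.1 and 81.8 to 174 units. The median background of the arrays was 20.5 to 37.5. The size of the changes of both genes varied with the background correction, which with normexp included 50 added units, while the direction did not.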
